A study of Mus musculus with 31 samples.

Results

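The 40 genes described here are imprinted in mouse, and were chosen by symbol from loci where only the copy inherited from 1 parent is mainly transcribed. Each symbol matched 1 Ensembl identifier of the deposited count file, so that they are 40 of its 47729 genes. They were followed in 31 RNA-seq libraries of embryonic nerve tissue, made to compare olfactory ensheathing cells (OECs), the glia of the olfactory nerve, with Schwann cells, the glia of other peripheral nerves such as the trigeminal nerve. All embryos carried the Sox10:H2BVenus BAC transgene, a reporter driven by regulatory sequence of the glial gene Sox10, whose nuclear fluorescence guided laser microdissection of the pieces; no group differed in genotype or treatment. At E16.5 (E for embryonic day) there were 4 libraries of olfactory nerve from the mucosa, 4 of outer olfactory nerve layer (ONL, the outermost layer of the olfactory bulb, where olfactory axons and OECs lie), 4 of inner ONL and 3 of trigeminal nerve. The early groups were 4 libraries of E11.5 olfactory nerve, 7 of E13.5 olfactory nerve and 5 of E13.5 ONL. Each library pooled tissue from several sections, and inner and outer ONL were cut by distance from the bulb, not along a visible border. In each early group the study took more pieces than embryos, so that some of these libraries share an embryo. At E16.5 it cut trigeminal and olfactory pieces from the same sections, so that libraries of different groups can share an embryo too. The labels do not name the embryo, and the main fit treats all libraries as independent. Its p-values thus do not measure the spread between embryos alone.

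The early libraries stood apart from their labels. The study's own group means were averages of deposited columns, matched over 1336 to 1414 genes per group, but 10 of the 31 libraries entered the mean of another group than their label names. The 4 libraries labelled E11.5 olfactory nerve and the library labelled E13.5 olfactory nerve replicate 1 made up the E13.5 ONL mean. Replicates 2 to 5 of those labelled as ONL of E13.5 made up the E11.5 mean, and the library labelled E13.5 ONL replicate 1 entered the E13.5 nerve mean. Early groups are given here as in those means, and every early comparison is given by GEO label as well. The E16.5 groups were the same either way, but grouping the early libraries by label changes the estimate of spread that all libraries share in the fit, and fewer E16.5 calls were made by label. Totals of counts ranged from 3512627 to 36705535 per library, and at E16.5 from 13379107 to 16800784 in the 12 olfactory libraries and from 30221586 to 32508725 in trigeminal nerve. Sox10 was detected in every library, at 39.9 to 85.4 CPM (counts per 1000000 of the scaled library size) in E13.5 nerve and at 572 to 712 CPM in outer ONL. In these bulk libraries, fewer cells of a type and less RNA per cell cannot be told apart.

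Imprinted genes lie in clusters in which a methylated control region, set in the egg or the sperm, decides which parental copy is transcribed. Many paternally expressed members promote fetal growth and many maternally expressed members restrain it, and most are at their highest before birth. Igf2, a growth factor, is expressed from the paternal copy, whereas its neighbour H19, a long noncoding RNA, and Igf2r, the receptor that clears IGF2, are expressed from the maternal copy. By general knowledge 11 of the 40 were classed by gene as expressed from the maternal copy, 23 from the paternal copy and 6 by tissue or isoform. The deposited counts separate neither the parental copies nor the isoforms of a gene. Every value here is thus the sum of both copies over all isoforms, also where only some isoforms are imprinted.

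Promoter sequence is shown for 3 pairs of genes on which the results below turn. Sequences are from RefSeq (GRCm38.p6), 300 bases each, from 250 bases before the start to 50 after it, 5′ to 3′ on the strand of the gene, with CG dinucleotides, the bases that can be methylated, in capitals. Peg3 and Usp29 are transcribed away from each other and their windows overlap (chr7:6730370-6730669, minus strand, and chr7:6730333-6730632, plus strand). Airn starts inside the Igf2r gene on the opposite strand (chr17:12741061-12741360, plus strand, against chr17:12769657-12769956, minus strand, for Igf2r). Plagl1 (chr10:13090582-13090881, plus strand) and Nnat (chr2:157559828-157560127, plus strand) ranged widely between the E16.5 groups in opposite directions, the highest group mean being 33.5-fold the lowest for Plagl1 and 36.7-fold for Nnat.
Peg3: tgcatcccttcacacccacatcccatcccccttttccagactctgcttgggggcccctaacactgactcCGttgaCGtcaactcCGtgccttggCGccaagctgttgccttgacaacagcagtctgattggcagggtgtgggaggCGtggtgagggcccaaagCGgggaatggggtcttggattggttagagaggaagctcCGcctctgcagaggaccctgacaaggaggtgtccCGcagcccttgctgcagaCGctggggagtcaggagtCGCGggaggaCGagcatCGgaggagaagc
Usp29: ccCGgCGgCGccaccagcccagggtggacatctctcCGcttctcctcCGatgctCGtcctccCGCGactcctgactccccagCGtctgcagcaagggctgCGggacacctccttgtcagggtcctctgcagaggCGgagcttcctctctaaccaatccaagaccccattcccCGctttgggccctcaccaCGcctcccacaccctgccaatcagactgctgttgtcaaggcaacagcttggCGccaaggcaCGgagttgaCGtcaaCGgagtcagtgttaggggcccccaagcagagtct
Igf2r: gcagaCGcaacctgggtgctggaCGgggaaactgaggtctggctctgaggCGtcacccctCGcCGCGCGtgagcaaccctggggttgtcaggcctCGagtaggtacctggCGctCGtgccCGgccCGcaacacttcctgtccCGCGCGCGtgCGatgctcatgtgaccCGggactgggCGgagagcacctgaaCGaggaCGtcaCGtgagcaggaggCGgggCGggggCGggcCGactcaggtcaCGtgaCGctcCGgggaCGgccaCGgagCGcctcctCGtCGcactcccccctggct
Airn: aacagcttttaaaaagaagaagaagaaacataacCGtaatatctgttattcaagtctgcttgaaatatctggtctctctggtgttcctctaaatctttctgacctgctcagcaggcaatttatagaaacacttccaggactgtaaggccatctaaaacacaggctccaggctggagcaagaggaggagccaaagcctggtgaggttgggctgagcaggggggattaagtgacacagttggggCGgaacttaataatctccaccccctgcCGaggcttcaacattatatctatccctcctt
Plagl1: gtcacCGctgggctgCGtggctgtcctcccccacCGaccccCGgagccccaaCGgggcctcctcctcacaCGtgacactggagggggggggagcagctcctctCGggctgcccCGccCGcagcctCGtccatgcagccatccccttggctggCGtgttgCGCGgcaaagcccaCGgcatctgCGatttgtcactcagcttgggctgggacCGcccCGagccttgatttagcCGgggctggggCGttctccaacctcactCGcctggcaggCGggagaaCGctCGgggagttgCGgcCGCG
Nnat: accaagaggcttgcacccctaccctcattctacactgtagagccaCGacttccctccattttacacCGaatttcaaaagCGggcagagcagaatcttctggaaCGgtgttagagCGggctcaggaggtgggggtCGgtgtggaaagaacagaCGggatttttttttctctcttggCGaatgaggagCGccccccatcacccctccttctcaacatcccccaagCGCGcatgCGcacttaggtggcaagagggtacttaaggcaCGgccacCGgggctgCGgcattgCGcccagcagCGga
The windows held 13 CG in Peg3, 17 in Usp29, 34 in Igf2r, 3 in Airn, 26 in Plagl1 and 17 in Nnat. RefSeq windows were at hand for 31 of the 40 genes, 49 windows in all, with a median of 12 CG and a range of 0 to 45. Among the 32851 windows of all genes the median was 7. At least 10 CG stood in 28 of the 49 windows and in 43.472% of all windows. Of 3 motifs searched on both strands, GGGGCCCC was in 2 of the 49 windows, those of Peg3 and Usp29 that overlap, and in 1.078% of all windows. TATAAA was in 11 of 49 (13.616% of all) and CCAAT in 18 of 49 (37.408% of all).

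All but 1 of the 40 genes passed the filter on low counts and were tested, the exception being Kcnk9, a potassium channel, with at most 3 counts in every library outside the E11.5 group. At least 1 count was present in every library for 34 members, 22 reached a mean of 100 CPM in some group, and 7 stayed under 10 CPM in every group. At E16.5, 28 of the 40 had their highest mean in trigeminal nerve, 9 in inner ONL, 2 in olfactory nerve and 1 in outer ONL, and 19 had their lowest mean in inner ONL. The summed level of all 40 was 15211 CPM ± 1485 (SD, n = 3) in trigeminal nerve, 1.52% of the scaled library size. In the other 6 groups the mean share of that size was 0.496% to 0.682%. Per kilobase of exon, the highest mean levels in trigeminal nerve were those of H19 at 833 CPM per kb, Mest at 620 and Dlk1 at 393, whereas in inner ONL they were those of Nnat at 749 and Ndn at 221. The heat map of all members shows this contrast between the last group and the rest.

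**Figure D1:**
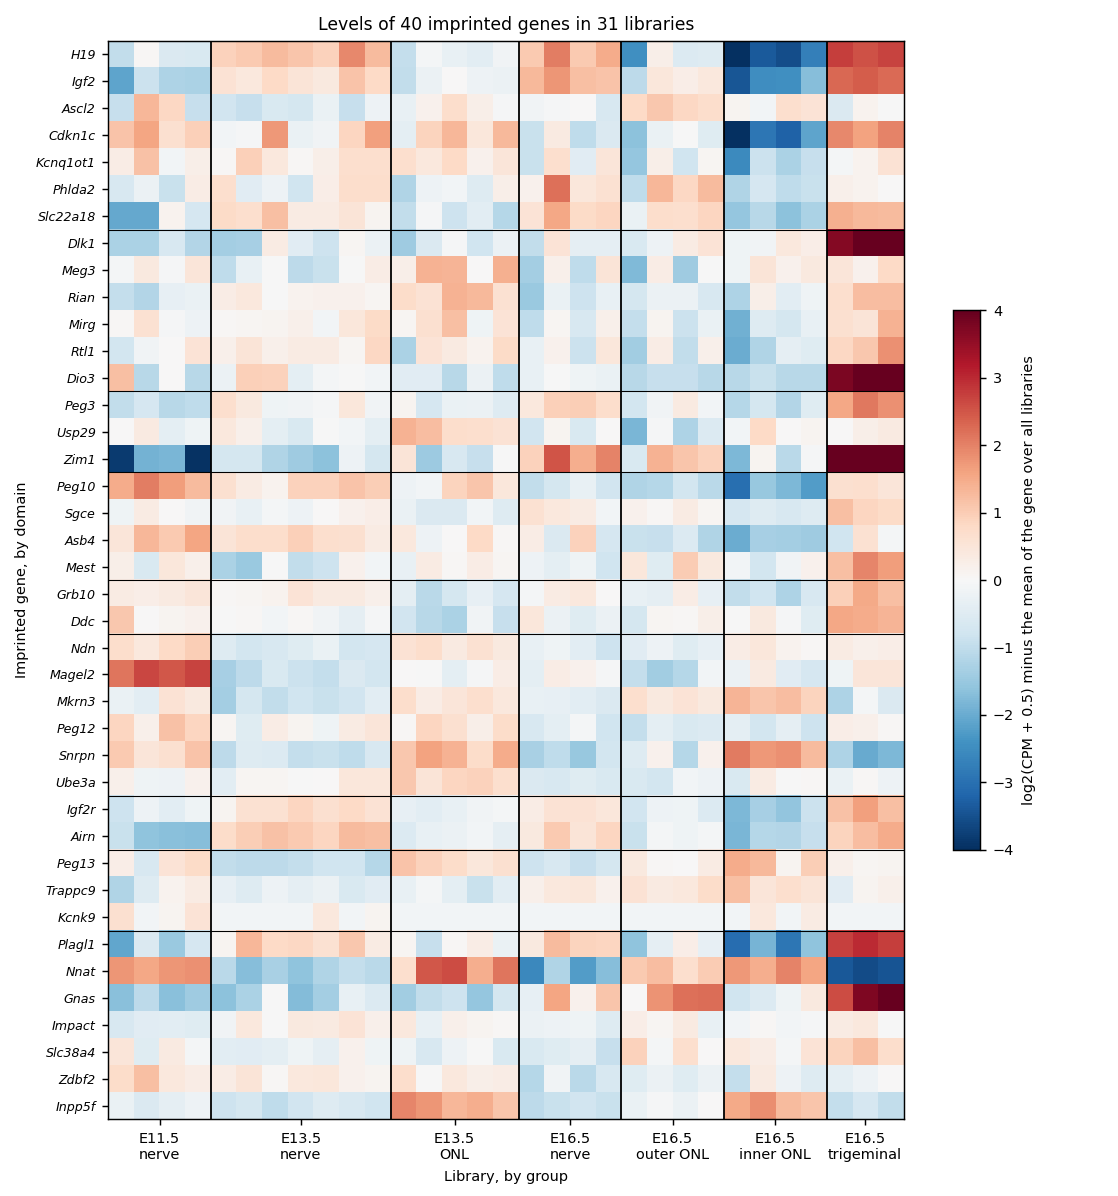
Levels of the 40 imprinted genes (vertical axis, grouped by domain) in the 31 libraries (horizontal axis, by group), as log2(CPM + 0.5) minus the mean of the gene over all libraries, with colours limited to differences of 4. Dlk1, Dio3, Zim1, H19, Igf2 and Plagl1 are high in the 3 trigeminal nerve libraries, in which Nnat is low, and H19, Igf2 and Cdkn1c are low in the 4 inner ONL libraries.

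The comparison of outer ONL with trigeminal nerve at E16.5 sets tissue with OECs beside tissue with Schwann cells. Of the 40 imprinted genes, 28 differed, 24 lower and 4 higher in outer ONL (edgeR's quasi-likelihood test, Benjamini-Hochberg adjusted p under 0.05). Over all 19332 genes tested, 25.8% were called, 12.3% lower and the other 2617 genes higher. The median log2 fold change was -1.02 over the members and 0.01 over all genes tested. Of the 11 maternally expressed members 7 were lower, and of the 23 paternally expressed members 14 were lower and 4 higher. Olfactory nerve was compared with the same 3 trigeminal nerve libraries and had 22 members lower and 1 higher, when 23.6% of all genes were called, 10.6% lower and the other 2513 genes higher. Its median log2 fold change was -0.72 over the members and -0.01 over all genes tested.

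The Dlk1-Dio3 domain on chromosome 12 had 5 of its 6 members lower in both comparisons with trigeminal nerve. Dlk1, which encodes a membrane protein of the Notch ligand family known for holding precursor cells back from differentiation, was at 1762, 2294 and 2608 CPM in the 3 trigeminal nerve libraries. It was at 90.3, 119.8, 173 and 203 CPM in outer ONL, at 123, 125, 185 and 165 CPM in inner ONL and at 69.4, 203, 107 and 107 CPM in olfactory nerve. Every trigeminal nerve library was above every olfactory library, and the mean was 18.3-fold that of olfactory nerve, while the 3 olfactory groups overlapped. By in situ hybridization the study placed Dlk1 in mesenchyme around the ONL or the nerve bundles. It named Dlk1 as an example of candidates found in adjacent tissue and not in glia. Dlk1 was lower in outer ONL than in trigeminal nerve by a log2 fold change of -3.92 ± 0.38 (SE; edgeR, adjusted p = 3.557e-09). The difference of olfactory nerve from trigeminal nerve was -4.19 ± 0.39 (edgeR, adjusted p = 2.392e-09). Dio3, which encodes the deiodinase that inactivates thyroid hormone, was at 14.0, 18.7 and 21.5 CPM in trigeminal nerve and had at most 1 count in each outer and inner ONL library. With a floor of 3 counts per library, Dio3 was at least 88.6-fold higher in trigeminal nerve than in outer ONL and at least 85.6-fold higher than in inner ONL.

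The noncoding RNAs of this domain, which are expressed from the other parental copy than Dlk1, had smaller fold changes. Meg3, a long noncoding RNA, was at 146, 119 and 183 CPM in trigeminal nerve and at 30.4, 129, 38.7 and 103 CPM in outer ONL. The ranges overlapped, and the log2 fold change of -0.99 ± 0.44 was not called (edgeR, adjusted p = 0.0977). In E16.5 libraries alone with the replicate number as a block it was called, at -1.51 (edgeR, adjusted p = 0.00667), as was Meg3 in olfactory nerve against trigeminal nerve, at -1.16 (edgeR, adjusted p = 0.0323). Rian, another noncoding RNA of the cluster, was lower by -1.52 ± 0.28 in outer ONL (edgeR, adjusted p = 0.00011). Mirg, a microRNA host, and Rtl1, a retrotransposon-derived coding gene of the paternal copy, had means of at most 6.79 CPM in any group. Both were also called lower in outer ONL. Mirg lost this call without trigeminal nerve replicate 3, and Rtl1 without that library or outer ONL replicate 1. Of the exon bases of Rtl1, 8.40% lie under microRNA genes, among them ones of the opposite strand. The libraries kept no strand, so the counts of Rtl1 are less certain. Within a library, Meg3 over Dlk1 was 0.0519 to 0.0831 in trigeminal nerve, below every library of outer ONL (0.223 to 1.07), inner ONL (0.645 to 1.21) and olfactory nerve (0.479 to 1.38).

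H19 and Igf2 of chromosome 7 had their means at E16.5 in the order trigeminal nerve, olfactory nerve, outer ONL and inner ONL, from high to low. H19 was at 2176, 1881 and 2089.9 CPM in trigeminal nerve and at 663, 1310.0, 667 and 894 CPM in olfactory nerve. It was at 58.5, 376, 220.2 and 224 CPM in outer ONL and at 8.21, 30.99, 26.9 and 47.5 CPM in inner ONL. No neighbouring pair of these groups overlapped, and the mean of trigeminal nerve was 72.2-fold that of inner ONL. Igf2 was at 2049, 2217 and 2009 CPM in trigeminal nerve and at 1035, 1409, 964 and 928 CPM in olfactory nerve. It was at 203, 569.7, 496 and 563 CPM in outer ONL and at 38.1, 73.8, 75.7 and 129 CPM in inner ONL. The groups followed the same order as for H19 without overlap. Outer ONL was lower than trigeminal nerve by a log2 fold change of -3.22 ± 0.43 for H19 (edgeR, adjusted p = 7.621e-07) and of -2.19 ± 0.31 for Igf2 (edgeR, adjusted p = 2.836e-06). Olfactory nerve was lower than trigeminal nerve by -1.21 ± 0.41 for H19 (edgeR, adjusted p = 0.0287) and by -0.95 ± 0.31 for Igf2 (edgeR, adjusted p = 0.0244), but both calls were lost by label (edgeR, adjusted p = 0.1025 for H19 and 0.1524 for Igf2), in the fit of E16.5 libraries alone, under scaling by total count or upper quartile, and when replicate 1, 3 or 4 of olfactory nerve or replicate 1 or 2 of trigeminal nerve was left out, that of H19 also without the third trigeminal nerve library. With the replicate number as a block in E16.5 libraries both were called (edgeR, adjusted p = 0.0184 for H19 and 0.0183 for Igf2).

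H19 and Igf2 did not fall in parallel. Within a library, H19 over Igf2 was 0.849 to 1.06 in trigeminal nerve and 0.641 to 0.964 in olfactory nerve, and it was 0.288 to 0.659 in outer ONL and 0.216 to 0.420 in inner ONL. The libraries of both ONL groups were below all trigeminal nerve libraries, while olfactory nerve and outer ONL overlapped. Cdkn1c, a maternally expressed inhibitor of cell division, was at 418, 337 and 444 CPM in trigeminal nerve. It was at 35.1, 91.5, 109 and 79.7 CPM in outer ONL, at 59.9, 142, 54.0 and 73.4 CPM in olfactory nerve and at 5.11, 14.5, 11.4 and 25.6 CPM in inner ONL. Trigeminal nerve was above and inner ONL below all other libraries, and outer ONL and olfactory nerve overlapped. The log2 fold change of outer ONL from trigeminal nerve was -2.34 ± 0.50 (edgeR, adjusted p = 0.0006). Of the exon bases of Cdkn1c, 30.7% lie under another annotated gene, so its counts are less certain.

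Plagl1, Grb10, Igf2r and Airn at other loci were also lower in outer ONL. Plagl1, a zinc finger transcription factor that acts on other imprinted genes, was at 824, 963 and 836 CPM in trigeminal nerve and at 39.97, 94.97, 147 and 97.1 CPM in outer ONL, with no overlap. Its log2 fold change was -3.21 ± 0.39 (edgeR, adjusted p = 1.647e-07). Grb10, an adaptor that dampens insulin and IGF receptor signalling, was at 1083, 1597 and 1305 CPM in trigeminal nerve and at 456, 438, 693 and 450.0 CPM in outer ONL, and fell by 1.38 on the log2 scale (SE 0.18; edgeR, adjusted p = 7.536e-07). Igf2r was at 183, 250.3 and 188 CPM in trigeminal nerve and at 46.7, 70.5, 71.6 and 55.1 CPM in outer ONL. Igf2r differed by -1.76 ± 0.20 (edgeR, adjusted p = 3.882e-08), and Airn, the antisense RNA that silences Igf2r on the paternal copy, by -1.53 ± 0.24 (edgeR, adjusted p = 1.015e-05). Igf2r and Airn, whose promoters are shown above, thus differed in the same direction. Their annotated exons shared 0.0% of their bases, but Airn is transcribed across the start of Igf2r. The libraries kept no strand, so that unspliced Igf2r RNA over Airn exons cannot be told apart from Airn. This limit holds for Airn in every comparison below.

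Peg3, a paternally expressed zinc finger gene of chromosome 7, was at 899, 1338 and 1095 CPM in trigeminal nerve and at 185, 279, 393 and 288 CPM in outer ONL. Its log2 fold change was -1.95 ± 0.24 (edgeR, adjusted p = 1.724e-07), and all 3 members of its domain were lower. Zim1, the maternally expressed zinc finger gene beside it, was at 146, 228 and 187 CPM in trigeminal nerve and at 4.68, 19.8, 16.2 and 14.4 CPM in outer ONL. Its difference was -3.76 ± 0.65 (edgeR, adjusted p = 4.904e-05). Mest, which encodes a hydrolase of mesoderm-derived tissue, was at 1819.8, 3017 and 2498 CPM in trigeminal nerve and at 1079, 557, 1595 and 1029 CPM in outer ONL. The groups did not overlap, and the log2 fold change was -1.20 ± 0.33 (edgeR, adjusted p = 0.00681), with 23.1% of the exon bases of Mest shared with Copg2. Peg10, a retrotransposon-derived gene needed by the placenta, was lower, at 3.38 to 4.84 CPM in outer ONL against 12.1 to 13.6 CPM in trigeminal nerve (log2 fold change -1.75 ± 0.33; edgeR, adjusted p = 0.000165). Gnas, which encodes the stimulatory G protein alpha subunit, was at 77.7, 171 and 226 CPM in trigeminal nerve and at 12.4, 43.8, 58.8 and 59.2 CPM in outer ONL. Its difference was -1.86 ± 0.46 (edgeR, adjusted p = 0.0029), with 22.0% of its exon bases shared with other genes. The other members called lower were Ddc, Magel2, Usp29, Asb4, Peg12, Sgce and Ndn, with log2 fold changes from -1.57 to -0.63 (edgeR, largest adjusted p = 0.0347), of which Asb4 and Usp29 were not called under total-count scaling. Each of Asb4, Usp29 and Peg12 also lost its call without outer ONL replicate 1 or trigeminal nerve replicate 2, Asb4 and Usp29 without trigeminal nerve replicate 3, Peg12 without trigeminal nerve replicate 1, Usp29 without outer ONL replicate 3, and Asb4 without outer ONL replicate 2 or 4. By label 24 members were called, 21 lower and 3 higher, beside 20.3% of all genes, 9.70% lower and 10.6% higher, and the calls of Asb4 (edgeR, adjusted p = 0.0632), Ndn (0.0813) and Magel2 (0.0822) were lost.

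The 4 members that were higher in outer ONL than in trigeminal nerve were Nnat, Snrpn, Mkrn3 and Inpp5f, all classed here by gene as paternally expressed. Nnat, which encodes a small membrane protein of developing neurons, was at 869.8, 995, 663 and 849.7 CPM in outer ONL and at 39.8, 34.5 and 37.6 CPM in trigeminal nerve. The log2 fold change was 4.501 ± 0.36 (edgeR, adjusted p = 8.985e-11). In olfactory nerve Nnat was at 69.7, 183, 89.2 and 129 CPM, between both, and it was the 1 member that was higher in olfactory nerve than in trigeminal nerve (1.66 ± 0.32; edgeR, adjusted p = 0.000187), a call that was lost by label (edgeR, adjusted p = 0.126). By label 16 members were called in that comparison, all 16 lower, beside 17.8% of all genes, 7.82% lower and the rest higher. Snrpn, a splicing factor most abundant in brain and with 34.1% of its exon bases under other annotated genes, was at 40.5, 65.1, 26.3 and 65.0 CPM in outer ONL against 24.5, 14.1 and 16.4 CPM in trigeminal nerve (1.43 ± 0.28; edgeR, adjusted p = 0.000197). Mkrn3, a ubiquitin ligase gene, differed by 1.10 ± 0.25 (edgeR, adjusted p = 0.00129). Inpp5f, an inositol phosphatase gene, was at 59.8 to 71.4 CPM in outer ONL and at 35.9 to 44.7 CPM in trigeminal nerve (0.74 ± 0.18; edgeR, adjusted p = 0.00186), and lost its call by label (edgeR, adjusted p = 0.126).

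**Figure D2:**
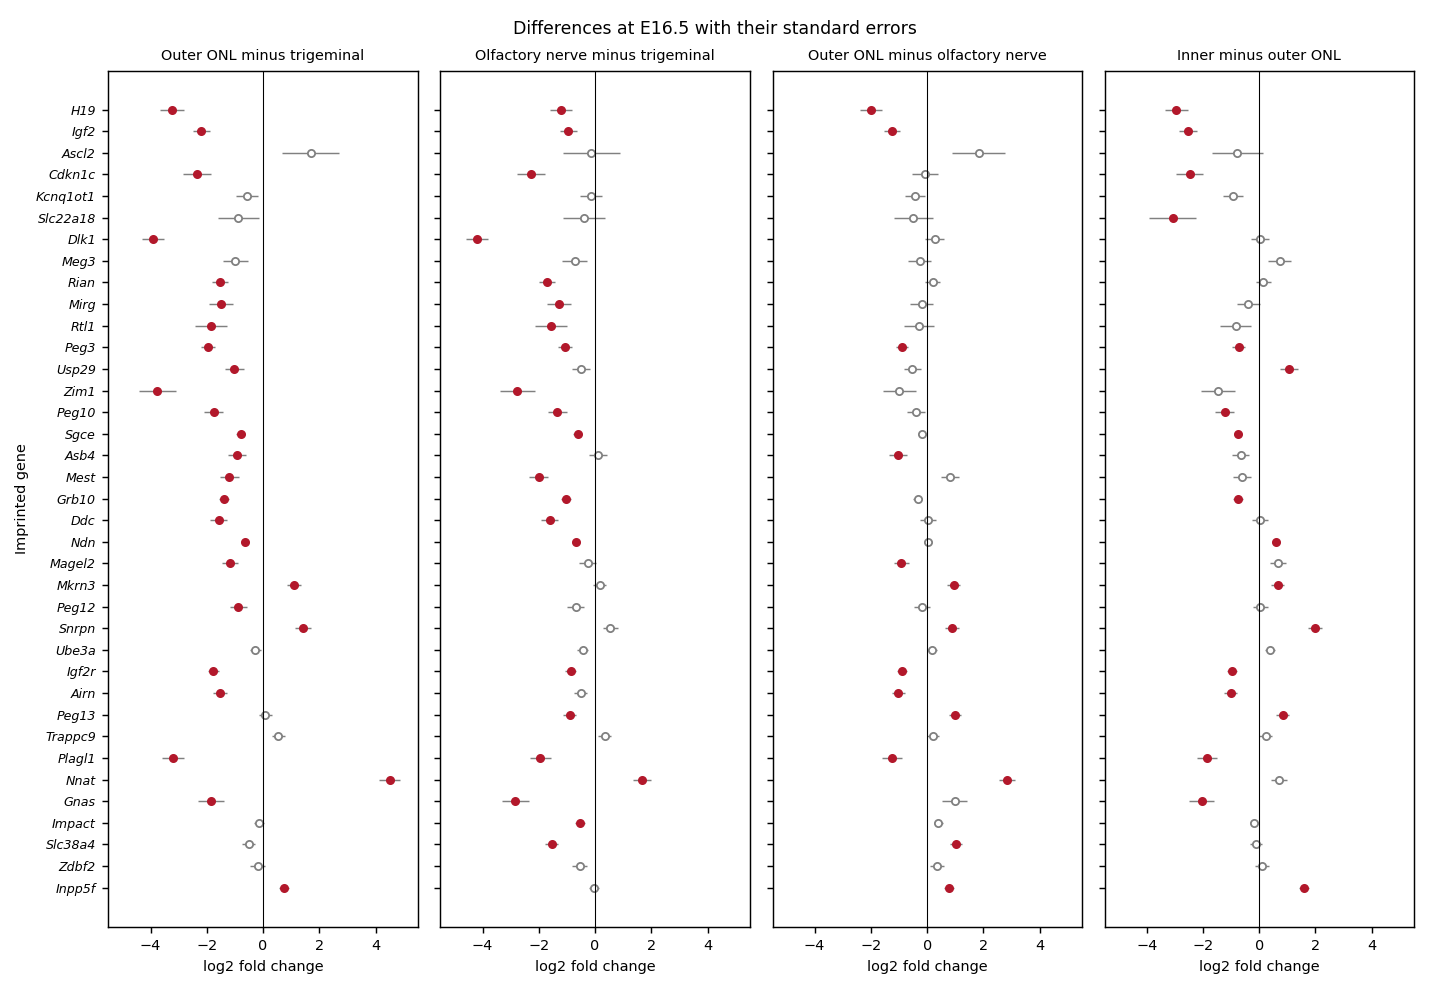
Log2 fold changes at E16.5 (horizontal axes) of the imprinted genes without a group at the count floor (vertical axis) in 4 comparisons, with their standard errors as bars. Red points passed an adjusted p of 0.05 and white points did not; in the panels against trigeminal nerve most red points lie left of 0, with Nnat furthest to the right.

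Markers of cell types and of other tissue also differed between these groups. The summed level of 8 mesenchyme markers was 25786 to 30505 CPM in trigeminal nerve, 9464 to 16822 CPM in olfactory nerve, 5561 to 11018 CPM in outer ONL and 1399.6 to 2508 CPM in inner ONL. In outer ONL 6 of the 8 were lower than in trigeminal nerve. The 6 skeletal muscle markers summed to 97.3 to 173 CPM in trigeminal nerve and to at most 25.0 CPM in any library of the other groups, and all 6 were lower in outer ONL; Myod1 was at 0 in all inner ONL libraries. The 6 neuron markers summed to 231 to 309 CPM in trigeminal nerve and 710 to 1341 CPM in olfactory nerve. They summed to 136 to 987 CPM in outer ONL and 1884 to 3996 CPM in inner ONL. In outer ONL 5 of the 6 were higher than in trigeminal nerve. The 6 glia markers summed to 18668 to 32874 CPM in outer ONL, against 1661 to 3906 CPM in olfactory nerve and 1372 to 1660 CPM in trigeminal nerve. Also higher in outer ONL than in trigeminal nerve were 3 of 6 glia, 1 of 5 cartilage and 3 of 5 olfactory epithelium markers. In olfactory nerve all 5 olfactory epithelium markers and 4 of 5 cartilage markers were higher than in trigeminal nerve. The part of mesenchyme, muscle, cartilage, epithelium, neurons and glia in the members' levels was not tested. Scaling by total count moved the median of all genes from 0.01 to 0.13 in outer ONL against trigeminal nerve and from -0.01 to 0.24 in olfactory nerve against trigeminal nerve. The share of higher genes among all calls went from 52.5% to 62.7% and from 55.1% to 77.5%, and the members called were then 22 lower and 5 higher, and 16 lower and 2 higher. Of all genes 27.4% and 25.2% were called under that scaling.

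**Figure D3:**
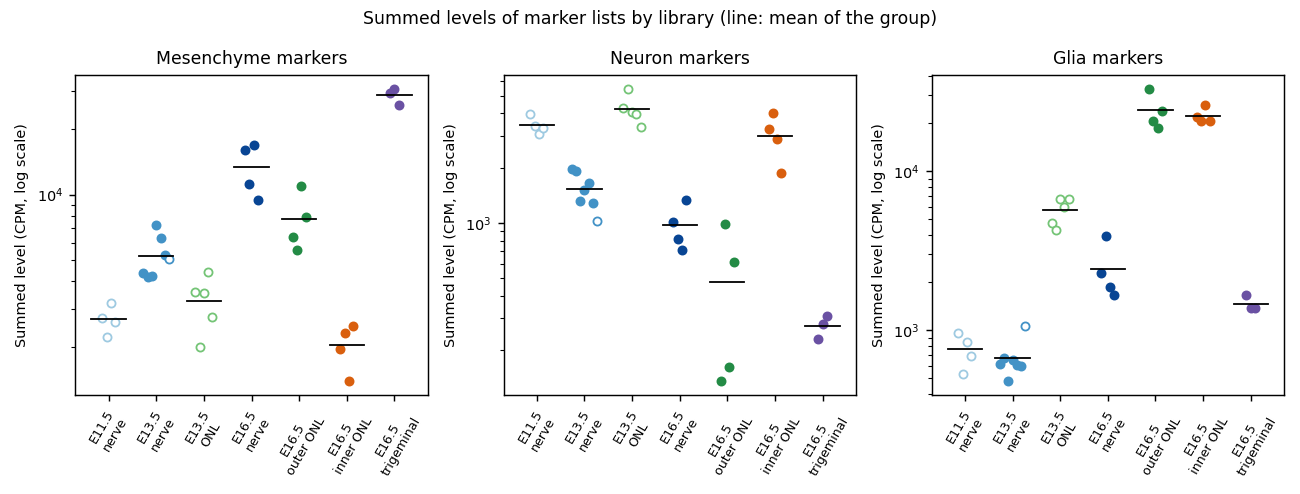
Summed levels (CPM, log scale) of the mesenchyme, neuron and glia marker lists in each library (points) by group (horizontal axis), with the group mean as a line; white points are libraries whose label names another group. Mesenchyme markers run from inner ONL (1399.6 to 2508 CPM) up to trigeminal nerve (25786 to 30505 CPM), and neuron markers are higher in inner than in outer ONL.

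Outer ONL was then compared with olfactory nerve, which sets tissue with OECs near the bulb beside tissue with OECs of the mucosa. Of the 40 members 14 differed, 8 lower and 6 higher in outer ONL (edgeR), when 22.0% of all genes were called, 11.8% lower and 10.2% higher. The median log2 fold change was -0.18 over the members and 0.01 over all genes. The members lower in outer ONL included H19 (-2.01 ± 0.39; edgeR, adjusted p = 0.000308), Igf2 (-1.24 ± 0.29; edgeR, adjusted p = 0.00213) and Plagl1 (-1.26 ± 0.35; edgeR, adjusted p = 0.00884). Plagl1 was at 162, 296, 228 and 222 CPM in olfactory nerve, above each outer ONL library. Igf2r, at 99.1, 121, 122 and 111 CPM in olfactory nerve, differed by -0.89 ± 0.18 (edgeR, adjusted p = 0.000536), and Airn by -1.02 ± 0.22 (edgeR, adjusted p = 0.00107). Neither pair overlapped, Airn being at 21.4, 34.3, 23.3 and 29.6 CPM in olfactory nerve and at 8.59, 15.4, 14.2 and 15.3 CPM in outer ONL. Peg3 was at 410.4, 599, 608 and 498 CPM in olfactory nerve and lower in outer ONL (-0.88 ± 0.22; edgeR, adjusted p = 0.00359). Asb4, a ubiquitin ligase subunit, and Magel2, a regulator of endosomal traffic, were the other members called lower, at -1.04 ± 0.31 (edgeR, adjusted p = 0.0145) and -0.92 ± 0.28 (edgeR, adjusted p = 0.0155), and both calls were lost when a library was left out (Asb4 without olfactory nerve replicate 3 or outer ONL replicate 4, Magel2 without outer ONL replicate 2 or 3).

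The 6 members higher in outer ONL than in olfactory nerve were Nnat, Slc38a4, Peg13, Mkrn3, Snrpn and Inpp5f. Nnat differed most, by 2.84 ± 0.30 (edgeR, adjusted p = 2.207e-08), with every outer ONL library above every olfactory nerve library. Slc38a4, an amino acid transporter, differed by 1.04 ± 0.22 (edgeR, adjusted p = 0.000675), at 58.5 to 116 CPM against 32.2 to 47.5 CPM. Peg13, a noncoding RNA inside Trappc9, differed by 0.99 ± 0.23 (edgeR, adjusted p = 0.00161), and Mkrn3 by 0.94 ± 0.23 (edgeR, adjusted p = 0.003). Inpp5f, at 34.0, 38.1, 42.1 and 38.0 CPM in olfactory nerve, differed by 0.78 ± 0.16 (edgeR, adjusted p = 0.000587). Snrpn, at 23.5, 28.5, 19.8 and 34.8 CPM in olfactory nerve, overlapped with outer ONL, and its call (0.88 ± 0.25; edgeR, adjusted p = 0.00947) was lost without olfactory nerve replicate 3 or outer ONL replicate 4. Dlk1, Cdkn1c, Meg3, Grb10 and Mest were not called in this comparison. Of 8 mesenchyme markers 5 were lower in outer ONL, of 6 glia markers 5 were higher, of 6 neuron markers 2 were lower and of 5 olfactory epithelium markers 4 were lower, and their part was not tested. When the fit grouped the early libraries by label, 9 members were called, 6 lower and 3 higher, beside 16.1% of all genes, 8.56% lower and 7.50% higher. Airn (edgeR, adjusted p = 0.141), Peg13 (0.0569), Inpp5f (0.0869), Magel2 (0.184) and Snrpn (0.199) were then not called. With the replicate number as a block in E16.5 libraries alone, Zim1 (-1.08; edgeR, adjusted p = 0.00554) and Ascl2 (1.79; edgeR, adjusted p = 0.0308) were called too, as was Dio3, which is at the floor in outer ONL.

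**Figure D4:**
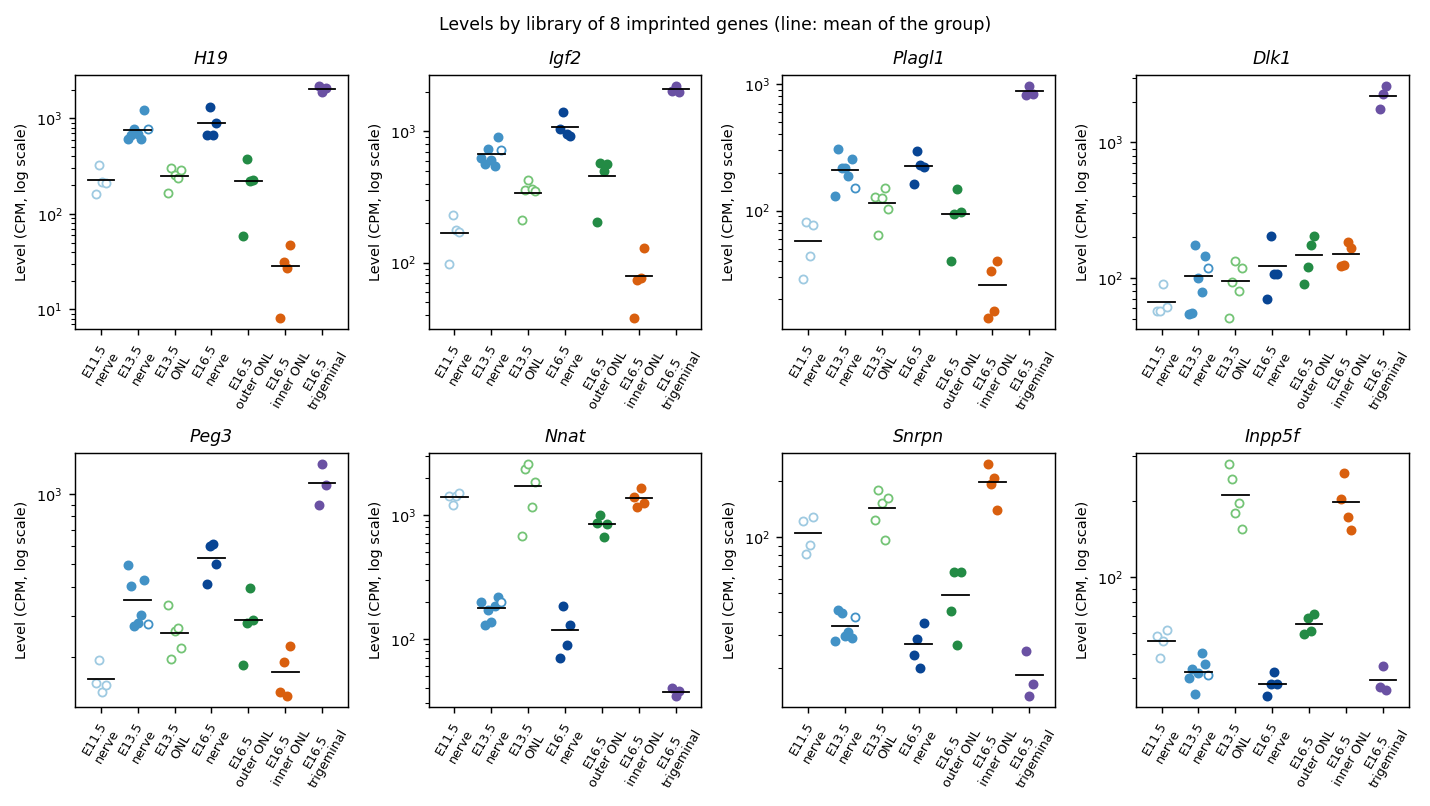
Levels (CPM, log scale) of 8 imprinted genes in each library (points) by group (horizontal axis), with the group mean as a line; white points are early libraries whose label names another group. H19, Igf2, Plagl1, Dlk1 and Peg3 are highest in trigeminal nerve, whereas Nnat, Snrpn and Inpp5f are lowest or among the lowest there and high in inner ONL and E13.5 ONL.

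Inner and outer ONL pieces differ in their distance from the bulb. The study reported that inner ONL pieces also held tissue of the olfactory bulb. It also reported that the cut did not separate inner from outer OECs. The pieces differed in 19 of the 40 members, 13 lower and 6 higher in inner ONL (edgeR). Of all genes 14.1% were called, 5.94% lower and 8.20% higher, and the median log2 fold change was -0.61 over the members and -0.05 over all genes. Among maternally expressed members 5 of 11 were lower, and among paternally expressed members 6 of 23 were lower and 6 higher. H19 differed by -2.95 ± 0.41 (edgeR, adjusted p = 6.558e-06), Igf2 by -2.53 ± 0.31 (edgeR, adjusted p = 1.043e-06) and Cdkn1c by -2.47 ± 0.49 (edgeR, adjusted p = 0.000543), each with no overlap of libraries. Plagl1 was at 14.3, 33.6, 16.3 and 40.2 CPM in inner ONL (-1.86 ± 0.36; edgeR, adjusted p = 0.00042), and its highest library was just above the lowest of outer ONL. Gnas was at 6.86, 8.28, 10.8 and 16.2 CPM in inner ONL (-2.05 ± 0.45; edgeR, adjusted p = 0.00172). Igf2r, at 23.0, 31.7, 26.5 and 44.2 CPM, and Airn, at 4.17, 7.07, 6.99 and 8.26 CPM, were both below every outer ONL library (-0.96 ± 0.19 and -1.02 ± 0.23; edgeR, adjusted p = 0.000418 and 0.0021). Grb10 was at 283, 326, 239 and 361 CPM in inner ONL (-0.75 ± 0.17; edgeR, adjusted p = 0.00225), and Peg10 at 0.605, 2.63, 2.04 and 1.39 CPM (-1.22 ± 0.34; edgeR, adjusted p = 0.012), a call lost without inner ONL replicate 1. Phlda2, a placental growth restrainer, had at most 3 counts in each inner ONL library and was at least 7.52-fold higher in outer ONL by its mean of 1.59 CPM, although outer ONL replicate 1, at 0.0767 CPM, was itself below the floor. Slc22a18, a transporter gene of the same cluster (-3.08 ± 0.82; edgeR, adjusted p = 0.00931), and Sgce, a sarcoglycan gene (-0.76 ± 0.15; edgeR, adjusted p = 0.00073), were the other members called lower beside Peg3.

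Snrpn, Inpp5f, Ndn, Usp29, Peg13 and Mkrn3 were the 6 members higher in inner ONL, among them 3 of the 6 genes of the Snrpn domain. Snrpn was at 246, 193, 208 and 140.1 CPM, above every outer ONL library, a log2 fold change of 1.998 ± 0.25 (edgeR, adjusted p = 1.868e-06). Inpp5f was at 203, 258, 173 and 154 CPM, also without overlap (1.60 ± 0.16; edgeR, adjusted p = 1.375e-07). Ndn, which encodes a growth suppressor of postmitotic neurons, was at 709 to 939.5 CPM against 494 to 598 CPM (0.60 ± 0.14; edgeR, adjusted p = 0.00218). Nnat was at 1411, 1155, 1664 and 1249.9 CPM in inner ONL, above each outer ONL library, but its difference of 0.70 ± 0.28 was not called (edgeR, adjusted p = 0.0986), except with the replicate number as a block in E16.5 libraries (0.76; edgeR, adjusted p = 0.0383). Peg13 and Mkrn3 were called higher, at 0.84 ± 0.23 and 0.66 ± 0.23 (edgeR, adjusted p = 0.00933 and 0.048), but Peg13 lost its call without inner ONL replicate 1, and Mkrn3 lost it without any of the outer ONL replicates or inner ONL replicate 1, 2 or 3. By label 14 members were called between inner and outer ONL, 11 lower and 3 higher, beside 8.58% of all genes, 3.37% lower and 5.21% higher. The calls of Ndn (edgeR, adjusted p = 0.127), Airn (0.213), Peg3 (0.07), Peg13 (0.16) and Mkrn3 (0.196) were the ones lost. Dlk1, Meg3, Rian and the other tested genes of that domain were not called. Beside these values, all 6 neuron markers were higher and 7 of 8 mesenchyme markers lower in inner ONL, and 1 of 6 glia markers was lower; the part of neurons and mesenchyme was not tested.

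Peg3 and Usp29, which share the start region printed above, differed in opposite directions between inner and outer ONL. Peg3 was at 141, 190.3, 136 and 221 CPM in inner ONL and lower than in outer ONL, by -0.74 ± 0.22 (edgeR, adjusted p = 0.0211). Usp29, a ubiquitin protease gene, was at 15.1, 28.6, 16.3 and 17.5 CPM in inner ONL and at 4.22, 15.5, 6.55 and 10.9 CPM in outer ONL, and was higher by 1.05 ± 0.31 (edgeR, adjusted p = 0.0188). The ranges of both genes overlapped between the groups, and Peg3 lost its call without outer ONL replicate 3 or inner ONL replicate 1 or 3, Usp29 without outer ONL replicate 1 or 3 or inner ONL replicate 2. Within a library, Usp29 over Peg3 was 0.0789 to 0.150 in inner ONL, above every library of outer ONL (0.0166 to 0.0555), olfactory nerve (0.0171 to 0.0331) and trigeminal nerve (0.0144 to 0.0192). The E13.5 ONL libraries, at 0.0984 to 0.198, and the E11.5 libraries, at 0.0870 to 0.109, were in the range of inner ONL or near it, and E13.5 nerve was at 0.0355 to 0.0532. Of the exon bases of Usp29, 14.8% are shared with other annotated genes.

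**Figure D5:**
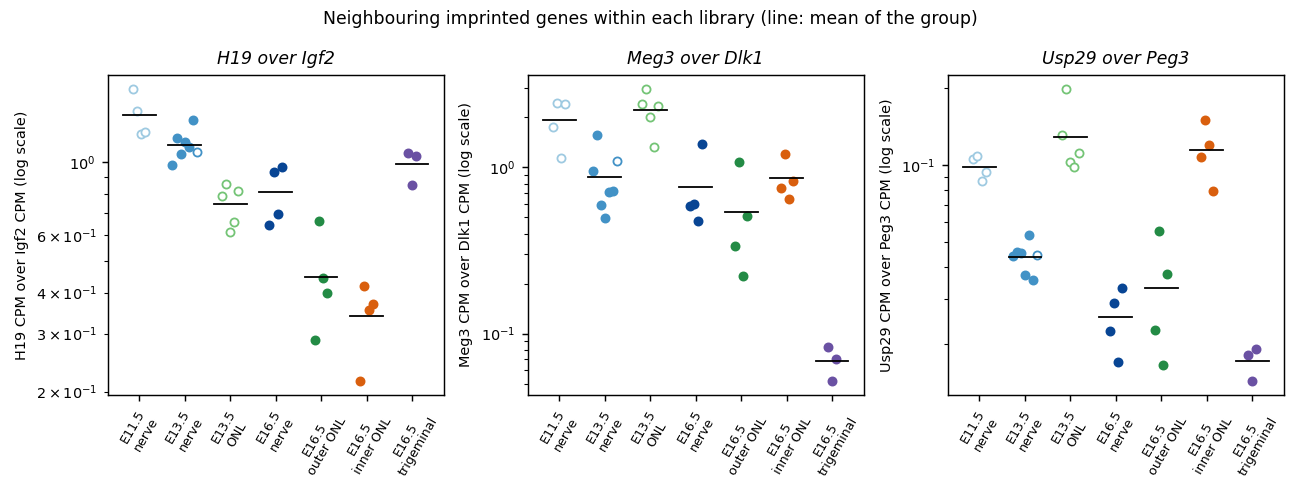
Ratios of CPM of neighbouring imprinted genes within each library (points, log scale) by group (horizontal axis), with the group mean as a line; white points are early libraries whose label names another group. H19 over Igf2 is below all trigeminal nerve libraries in both ONL groups of E16.5, Meg3 over Dlk1 is lowest in trigeminal nerve (0.0519 to 0.0831), and Usp29 over Peg3 is higher in inner ONL (0.0789 to 0.150) than in the other E16.5 groups.

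At E13.5, ONL was compared with olfactory nerve, with the libraries grouped as in the study's means. Of the 40 members 19 differed, 11 higher and 8 lower in ONL (edgeR), when 31.5% of all genes were called, 15.4% higher and 16.1% lower. The medians were near 0, at -0.01 over the members and -0.03 over all genes. Nnat was at 675, 2366, 2577, 1159 and 1846 CPM in E13.5 ONL and at 129 to 218 CPM, with a median of 184, in E13.5 nerve (3.29 ± 0.24; edgeR, adjusted p = 4.901e-12). Inpp5f was at 279, 243, 179, 197 and 155 CPM and at 34.8 to 50.2 CPM, median 41.9 (2.31 ± 0.13; edgeR, adjusted p = 9.216e-14), and Snrpn at 124, 180.1, 153, 96.1 and 163 CPM and at 27.9 to 40.7 CPM, median 31.2 (2.099 ± 0.20; edgeR, adjusted p = 1.717e-09). All 3 were apart from nerve in each library, and of the 6 genes of the Snrpn domain 5 were higher. Airn (-1.38 ± 0.19; edgeR, adjusted p = 1.283e-06), H19 (-1.60 ± 0.33; edgeR, adjusted p = 0.000304) and Igf2 (-0.98 ± 0.25; edgeR, adjusted p = 0.0023) were lower in ONL. H19 was at 165, 304, 258, 238.2 and 288 CPM in ONL and at 608 to 1222 CPM, median 689.9, in nerve.

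By label, 10 members were called at E13.5, 3 higher and 7 lower, and 7 of them were among the 19, when 17.7% of all genes were called, 8.88% higher and 8.81% lower. H19 was then at -1.04 (edgeR, adjusted p = 0.0742), Inpp5f at -0.15 (edgeR, adjusted p = 0.726), Snrpn at 0.83 (edgeR, adjusted p = 0.108) and Nnat at 1.49 (edgeR, adjusted p = 0.0524). Airn, at -1.33 (edgeR, adjusted p = 0.0217), and Igf2, at -1.15 (edgeR, adjusted p = 0.028), were called lower in ONL under both groupings. Ndn was called higher under both, at 1.11 ± 0.11 by the study's means (edgeR, adjusted p = 3.902e-09) and 0.93 by label (edgeR, adjusted p = 0.0027). Of 6 neuron markers 5 were higher in E13.5 ONL and of 8 mesenchyme markers 5 were lower and 1 higher in the grouping of the study's means, and their part was not tested.

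Olfactory nerve at E13.5 was compared with E11.5, to follow the nerve as it grows. There were 20 members called, 10 higher and 10 lower at E13.5 (edgeR), beside 36.6% of all genes, 20.2% higher and 16.4% lower. Airn rose from 8.61, 5.03, 4.77 and 4.69 CPM to 27.1 to 39.7 CPM, median 33.9 (2.56 ± 0.22; edgeR, adjusted p = 3.192e-10). Igf2 rose from 97.2, 229, 178 and 172 CPM to 549 to 911 CPM, median 628 (1.99 ± 0.28; edgeR, adjusted p = 2.004e-06), and Plagl1 by 1.85 ± 0.33 (edgeR, adjusted p = 6.235e-05). Igf2r rose by 1.02 ± 0.17 (edgeR, adjusted p = 2.122e-05), in the same direction as Airn. Magel2 fell from 36.6, 53.6, 46.8 and 54.7 CPM to 2.86 to 5.25 CPM, median 4.22 (-3.50 ± 0.24; edgeR, adjusted p = 2.615e-12). Nnat fell by 2.99 on the log2 scale from 1443, 1217, 1420.4 and 1508 CPM (SE 0.24; edgeR, adjusted p = 1.039e-10). Of the 6 genes of the Snrpn domain 5 fell. The ranges of both stages were apart for each gene named here.

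By label, 12 members were called between E11.5 and E13.5 nerve, 3 higher and 9 lower at E13.5, and 9 of them were among the 20, when 17.5% of all genes were called, 9.31% higher and 8.18% lower. Magel2 was then at -0.56 (edgeR, adjusted p = 0.382), Airn at 1.19 (edgeR, adjusted p = 0.0535), Plagl1 at 0.78 (edgeR, adjusted p = 0.157) and Igf2 at 0.88 (edgeR, adjusted p = 0.118). Nnat, at -2.04 (edgeR, adjusted p = 0.0126), and Igf2r, at 0.84 (edgeR, adjusted p = 0.00787), were called in the same direction under both groupings. In the grouping of the study's means, 7 of 8 mesenchyme markers were higher and 1 lower at E13.5 and 5 of 6 neuron markers were lower, and their part was not tested.

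From E13.5 to E16.5, 14 members were called in olfactory nerve, 7 higher and 7 lower (edgeR), beside 28.8% of all genes, 15.2% higher and 13.6% lower. Zim1 rose from 1.999 to 6.36 CPM, median 4.31, to 14.2, 44.4, 20.9 and 30.6 CPM (2.86 ± 0.52; edgeR, adjusted p = 0.000138). Gnas rose by 1.71 ± 0.39 (edgeR, adjusted p = 0.00117) and Igf2 by 0.69 ± 0.25 (edgeR, adjusted p = 0.0389). Peg10 fell from 9.27 to 19.2 CPM, median 16.2, to 4.02, 5.01, 6.70 and 4.71 CPM (-1.51 ± 0.29; edgeR, adjusted p = 0.000234), and Cdkn1c by 1.20 on the log2 scale (SE 0.43; edgeR, adjusted p = 0.0338). By label 12 members were called, beside 25.1% of all genes, among them Zim1 at 2.69 (edgeR, adjusted p = 0.00202), Gnas at 1.74 (edgeR, adjusted p = 0.00206) and Peg10 at -1.43 (edgeR, adjusted p = 0.00116), while Igf2 (0.81; edgeR, adjusted p = 0.105) and Cdkn1c (-1.11; edgeR, adjusted p = 0.0524) were not. Without E16.5 olfactory nerve replicate 1, 9 members were called, beside 22.8% of all genes. Igf2 lost its call without that library, without E16.5 replicate 2 or without the libraries labelled E13.5 nerve replicates 2, 3, 5 or 6, and Cdkn1c without E16.5 replicate 1, 3 or 4 or the libraries labelled E13.5 nerve replicate 4 or E13.5 ONL replicate 1. In the grouping of the study's means, 6 of 8 mesenchyme markers were higher at E16.5 and 2 lower, and their part was not tested.

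Outer ONL at E16.5 differed from E13.5 ONL in 23 members, 6 higher and 17 lower (edgeR), beside 41.9% of all genes, 21.9% higher and the other 3869 genes lower. The median log2 fold change was -0.27 over the members and 0 over all genes. Inpp5f fell by 1.69 on the log2 scale (SE 0.16; edgeR, adjusted p = 1.404e-09), Snrpn by 1.54 (SE 0.24; edgeR, adjusted p = 6.156e-06) and Ndn by 0.90 (SE 0.13; edgeR, adjusted p = 2.334e-06). Ube3a, a ubiquitin ligase expressed from the maternal copy in neurons and with 27.3% of its exon bases under other annotated genes, fell by 1.23 (SE 0.18; edgeR, adjusted p = 2.122e-06), and of the 6 genes of the Snrpn domain 5 were lower. Gnas rose from 3.84 to 7.31 CPM to 12.4 to 59.2 CPM (2.92 ± 0.44; edgeR, adjusted p = 3.434e-06). Per kilobase of exon its means were low, at 0.503 CPM per kb in E13.5 ONL and 3.89 CPM per kb in outer ONL. Which of its isoforms these counts hold was not tested. Trappc9 and Slc38a4 rose by 0.93 ± 0.21 and 0.76 ± 0.21 (edgeR, adjusted p = 0.000759 and 0.00332). By label 15 members were called, 6 higher and 9 lower, of which 10 were among the 23, beside 35.2% of all genes, 18.2% higher and 17.1% lower. Gnas was then at 3.13 (edgeR, adjusted p = 5.18e-06) and Ndn at -0.92 (edgeR, adjusted p = 0.00273), but Snrpn at -0.90 (edgeR, adjusted p = 0.103) and Inpp5f at 0.30 (edgeR, adjusted p = 0.445). Ube3a at -0.51 (edgeR, adjusted p = 0.0394) and Trappc9 at 0.78 (edgeR, adjusted p = 0.0059) were called by label as well, and Slc38a4 at 0.38 (edgeR, adjusted p = 0.162) was not. In the grouping of the study's means, all 6 neuron markers were lower in outer ONL than in E13.5 ONL, while 5 of 6 glia, 5 of 5 mural cell and 4 of 5 cartilage markers were higher and mesenchyme markers were 5 higher and 1 lower of 8. Their part was not tested.

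The difference between ONL and nerve itself, taken with outer ONL at E16.5, changed from E13.5 to E16.5 for 7 members by the interaction term, 6 with a lower and 1 with a higher ONL-minus-nerve difference at E16.5 (edgeR), beside 12.3% of all genes, 6.75% lower and 5.59% higher. Inpp5f (-1.53 ± 0.21; edgeR, adjusted p = 1.205e-05), Ndn (-1.07 ± 0.18; edgeR, adjusted p = 0.000122) and Magel2 (-1.82 ± 0.36; edgeR, adjusted p = 0.000775) had the smallest adjusted p. Inner ONL did not enter this term, and its means of Inpp5f and Snrpn, each at 197 CPM, were beside 210.4 and 143 CPM in E13.5 ONL. Usp29, Snrpn and Meg3 were the other genes with a lower difference, and Slc38a4 had the higher one. The call of Meg3 was lost when any of 10 libraries was left out: those labelled E11.5 nerve 2 and 3, E13.5 nerve 1, 2, 5 and 6, E16.5 nerve 2 and 4, and outer ONL 1 and 3. By label 4 members were called, 1 higher and 3 lower, beside 12.5% of all genes, 6.83% higher and 5.71% lower, and only Magel2 (-3.88; edgeR, adjusted p = 8.76e-05) was among the 7. Inpp5f, at 0.93 (edgeR, adjusted p = 0.134), and Snrpn, at 0.051 (edgeR, adjusted p = 0.974), had the opposite sign by label. All 6 neuron markers had a lower ONL-minus-nerve difference at E16.5 in the grouping of the study's means, and their part was not tested.

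Another list of 45 imprinted genes outside the 40 was examined for comparison, of which 38 were tested. In outer ONL against trigeminal nerve 14 were called, 5 higher and 9 lower, with a median log2 fold change of -0.01 (25.8% of all genes called), and in olfactory nerve against trigeminal nerve 13 were called, 6 higher and 7 lower, with a median of -0.13 (23.6% of all genes). In outer ONL against olfactory nerve 15 were called, 6 higher and 9 lower (22.0% of all genes), and between inner and outer ONL 9, 5 higher and 4 lower (14.1% of all genes). Smoc1, a secreted matrix protein, was at 64.5 to 85.4 CPM in outer ONL and at 1.98 to 11.6 CPM in olfactory nerve (3.99 ± 0.40; edgeR, adjusted p = 1.149e-08). Th, the rate-limiting enzyme of dopamine synthesis, was at 95.1 to 108 CPM in inner ONL, at 2.85 to 25.2 CPM in outer ONL and at 0 to 0.397 CPM in trigeminal nerve. Rasgrf1, a Ras activator of neurons, had means of 67.0 CPM in inner ONL and 0.157 CPM in trigeminal nerve. Nap1l5, a gene of the nucleosome assembly protein family, was higher in olfactory nerve than in trigeminal nerve (3.47 ± 0.49; edgeR, adjusted p = 2.921e-06), and Ano1, a chloride channel, was lower in outer ONL than in olfactory nerve (-2.28 ± 0.34; edgeR, adjusted p = 7.114e-06). Cobl, an actin nucleator gene, differed by -1.65 ± 0.28 in outer ONL against trigeminal nerve (edgeR, adjusted p = 4.139e-05). Phactr2 and Osbpl5 were lower in outer ONL than in trigeminal nerve, by -1.63 ± 0.19 (edgeR, adjusted p = 1.229e-07) and -2.17 ± 0.30 (edgeR, adjusted p = 1.925e-06).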

How the data were processed

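RNA of laser-microdissected pieces was amplified with SMART-Seq v4 and made into Nextera XT libraries, a kit that keeps no strand. Per the labels and methods, the authors checked reads with FastQC, aligned them to mm10 with TopHat2 2.1.0 and deposited raw counts per Ensembl gene from HTSeq, whose strand setting is not given in the sources used here. The file held 47729 genes, and 1 row without a gene name, which had no counts, was left out. Symbols and exons came from GENCODE M21 (GRCm38).

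Genes were filtered with filterByExpr, and one quasi-likelihood model was fitted to all 31 libraries and 7 groups with edgeR 4.0.16 (R 4.3.3) after TMM scaling, over 19332 genes. Calls needed a Benjamini-Hochberg adjusted p under 0.05. Levels are CPM on TMM-scaled library sizes, and per-kilobase levels divide them by exon length. Pieces of 1 group are separate libraries. In E16.5 olfactory nerve and outer ONL, deviations from group means over 10727 genes correlated at 0.253 to 0.53 in the 4 same-numbered pairs. Differently numbered pairs of these groups ran from -0.4 to 0.384 and overlapped with them, so that pairing by number is not established. In every other pair of E16.5 groups the lowest same-numbered correlation was 0.0352 or less. The columns of the study's own comparisons, fold changes and p-values, were not used.

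The members and lists were chosen with earlier results of these data known. Library values were given for members with a highest group mean of at least 20 CPM and a difference of at least 4-fold between the highest and lowest E16.5 means, and for H19, Igf2, Dlk1, Meg3, Igf2r and Cdkn1c, 17 in all, and for a few others in a comparison that turned on them. A group in which no library had more than 3 counts was treated as at the floor, taken as 3 counts per library, and such limits cover counting error only. Of the other imprinted genes, 8 were named, with a level of at least 20 CPM, a call in a comparison of outer ONL, olfactory nerve or trigeminal nerve and the largest changes. Totals of 3512627 to 36705535 counts set the precision of each library. Alternatives were grouping by label, total-count and upper-quartile scaling, no filter, a stricter filter (5 CPM in 3 libraries), DESeq2 1.42.0, E16.5 libraries alone with and without the replicate block, and leaving out each library. On simulated counts for outer ONL against olfactory nerve over 19332 genes, edgeR recovered 63 of 100 genes changed by a log2 of 1 and 97 of 100 changed by a log2 of 2.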

Additional observations from a re-analysis of the deposited data

Results flagged for a closer look

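Of 102 group levels of 17 members examined for a library far from the others of its group, 5 had one, when chance gives about 1 in 20. H19 was at 1222 CPM in the E13.5 nerve library labelled E13.5 olfactory nerve replicate 7, against 608 to 774 CPM in the other libraries of that group. In the E11.5 group, Dlk1 was at 89.4 CPM in the library labelled E13.5 ONL replicate 4 (others 56.6 to 60.7 CPM), and Airn at 8.61 CPM in the library labelled E13.5 ONL replicate 2 (others 4.69 to 5.03 CPM). In outer ONL, Grb10 was at 693 CPM in replicate 3 (others 438 to 456 CPM), and Airn at 8.59 CPM in replicate 1 (others 14.2 to 15.4 CPM).

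The difference between ONL and nerve changed from E13.5 to E16.5 by the interaction term for 7 members (edgeR's quasi-likelihood test, Benjamini-Hochberg adjusted). Here early libraries were not grouped by label. The log2 change was -1.61 for Meg3 (adjusted p = 0.0422), -1.58 for Usp29 (adjusted p = 0.0071), -1.07 for Ndn (adjusted p = 0.000122) and -1.82 for Magel2 (adjusted p = 0.000775). It was -1.21 for Snrpn (adjusted p = 0.00968), 1.11 for Slc38a4 (adjusted p = 0.00757) and -1.53 for Inpp5f (adjusted p = 1.205e-05). By label, Magel2 alone of these 7 was called.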

How the results depend on the processing

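Of 167 calls of a member in a comparison, 82 held under every alternative run, 73 were lost under at least 1, and 17 changed direction, all 17 when libraries were grouped by label. The cause of these changes was not tested beyond the different libraries in each group. In the study's grouping, the 5 olfactory epithelium markers summed to 5.40 to 13.3 CPM in E13.5 ONL. They summed to 112 to 167 CPM in E11.5 nerve and 240 to 462 CPM in E13.5 nerve. The glia markers summed to 4301 to 6731 CPM, 535 to 963 CPM and 481 to 1064 CPM in that order. Sox10 ran otherwise, at 71.4 to 219 CPM, 287 to 358 CPM and 39.9 to 85.4 CPM. Which grouping is right was not tested. By label, the members called numbered 9 in outer ONL against olfactory nerve, 24 in outer ONL against trigeminal nerve, 16 in olfactory nerve against trigeminal nerve, 14 in inner against outer ONL, 10 in E13.5 ONL against nerve, 12 in E13.5 against E11.5 nerve, 12 in E16.5 against E13.5 nerve, 15 in E16.5 outer ONL against E13.5 ONL and 4 in the interaction. The log2 fold changes that turned were, in E13.5 ONL against nerve, Rian -0.74, Usp29 -0.15, Sgce 0.21, Grb10 0.17, Ddc 0.55, Ube3a -0.051 and Inpp5f -0.15. In E13.5 against E11.5 nerve they were Rian -0.78, Zim1 -0.22 and Peg10 0.14. In outer ONL against E13.5 ONL they were Rian 0.017, Grb10 -0.47, Ddc -0.39, Peg13 0.080 and Inpp5f 0.30, and in the interaction Snrpn 0.051 and Inpp5f 0.93.

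Leaving out 1 library at a time gave 12 to 15 members called in outer ONL against olfactory nerve, 24 to 28 in outer ONL against trigeminal nerve, 19 to 23 in olfactory nerve against trigeminal nerve and 15 to 19 in inner against outer ONL. It gave 17 to 21 in E13.5 ONL against nerve, 18 to 21 in E13.5 against E11.5 nerve, 9 to 13 in E16.5 against E13.5 nerve, 19 to 23 in outer ONL against E13.5 ONL and 6 to 8 in the interaction. DESeq2 called 15, 28, 23 and 19 members in the 4 comparisons at E16.5, in that order, beside 23.3%, 28.2%, 25.3% and 16% of all genes. With the replicate number as a block, in E16.5 libraries alone, 17, 30, 24 and 22 were called, beside 26.7%, 30.7%, 25.6% and 18% of all genes. Without the block 17, 29, 19 and 21 were called, beside 25.7%, 31.3%, 26.9% and 17.7% of all genes. Beside the values given above, the blocked fit added Ascl2 (1.82), Kcnq1ot1 (-0.99) and Slc22a18 (-1.06) in outer ONL and Airn (-0.54) in olfactory nerve against trigeminal nerve, and Kcnq1ot1 (-0.88) and Zim1 (-1.47) in inner against outer ONL, and it lost Asb4 and Peg12 in outer ONL and Impact in olfactory nerve against trigeminal nerve. Total-count scaling moved the median of all genes in outer ONL against olfactory nerve from 0.01 to -0.13 and the share of higher genes among calls from 46.4% to 34.1%. Upper-quartile scaling gave 65.5% higher in olfactory nerve against trigeminal nerve. Members under 10 CPM in every group, 7 in all, and E13.5 ONL libraries down to 3512627 counts were the least precise.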

Other observations

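Some noncoding RNAs of imprinted loci varied by replicate number at E16.5, as seen after their values were known. Meg3 was at 40.8, 121, 51.4 and 148 CPM in olfactory nerve replicates 1 to 4 and at 30.4, 129, 38.7 and 103 CPM in outer ONL. Kcnq1ot1, the antisense noncoding RNA of the Kcnq1 cluster, was at 69.7, 209.9, 95.2 and 183 CPM and at 44.1, 155, 75.1 and 139 CPM. Replicates 1 and 3 were below replicates 2 and 4 for both genes in both tissues. Malat1, a nuclear noncoding RNA of a locus outside the imprinted clusters, was at 151, 345, 192 and 393 CPM in olfactory nerve and at 156, 342, 159.8 and 314 CPM in outer ONL. The summed neuron markers of outer ONL were also lower in replicates 1 and 3, at 136 and 163 CPM, than in replicates 2 and 4, at 987 and 609 CPM. In olfactory nerve these markers did not follow that order, at 1018, 813, 710 and 1341 CPM in replicates 1 to 4. The part of the replicate or of neurons in these levels was not tested.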
